A study of Rattus norvegicus with 12 samples.

Results

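The matrix metalloproteinases and their tissue inhibitors were followed in RNA sequencing of rat cornea. The genes were chosen by symbol from a list of 10: Mmp2, Mmp3, Mmp9, Mmp10, Mmp12, Mmp13, Mmp14, Timp1, Timp2 and Timp3. Of these, 9 were found among the 30452 genes of the deposited table, and Timp2 is not analysed here. The 12 libraries make 4 groups of 3: Control, Alkali-burned, and the patch groups SF/HA-HEP-PAM and SF/HA. A silk-based patch, detachable and placed over the ocular surface to draw off inflammatory mediators, is the subject of the series. What SF, HA, HEP and PAM stand for is not spelled out in the labels, nor is it said that corneas under a patch had been burned. Strain, age, sex and time after treatment are not given in the sources used here. Nor do the labels say that replicates are separate animals, so the spread that p-values rest on is that among these samples and may be technical.

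Matrix metalloproteinases are zinc-dependent endopeptidases that cut collagens, laminins, proteoglycans and other matrix proteins. Most are secreted as inactive proenzymes and become active once a propeptide is removed, often by plasmin or by another metalloproteinase. Tissue inhibitors of metalloproteinases (TIMPs) occupy the active site of the enzyme. In the cornea the stroma is built of ordered collagen, and after an alkali burn these proteases are known for their part in stromal breakdown, in remodelling and in the movement of epithelium over the wound.

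Levels are given in RPM (a read count scaled to the reads assigned to genes in its library, the sum over genes being 1000000), with library replicates named by number. RPM was obtained from the deposited FPKM (fragments scaled to gene length and sequencing depth) by taking out its length, since that length is the genomic span of the gene. Levels of single genes are therefore not ranked against each other. Only shares and ratios of summed reads are given further below, and these depend on gene length as well. The libraries held 486264 to 2117399 assigned reads, and depth differed by group. SF/HA-HEP-PAM libraries held 1245606 to 2117399 and Alkali-burned 1173159 to 1265298, against at most 1015788 in Control and 957696 in SF/HA. Genes with reads numbered 14293 to 15106 in SF/HA-HEP-PAM and 11880 to 13904 elsewhere. A count of 0 reads on a gene allows up to 1.42 RPM in the deepest library and up to 6.17 RPM in the shallowest. Intervals and these limits cover counting error only. A gene was called when limma's Benjamini-Hochberg adjusted p was below 0.05 and the log2 difference of RPM plus 2 was above 1 or below -1. All 9 genes passed the filter of 5 RPM in 3 libraries, among 10049 genes tested.

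In build mRatBN7.2, the build of the deposited positions, 4 of the 9 genes lie on chromosome 8 within a cluster of metalloproteinase genes, all 4 on the plus strand. Mmp13 (ENSRNOG00000008478) spans 4497960 to 4508239, Mmp12 (ENSRNOG00000030187) spans 4581785 to 4599611, Mmp3 (ENSRNOG00000032626) spans 4640416 to 4653961 and Mmp10 (ENSRNOG00000032832) spans 4689840 to 4697748. The others are dispersed: Mmp14 (ENSRNOG00000010947) on chromosome 15 from 27887727 to 27899864, Mmp2 (ENSRNOG00000016695) on 19 from 14154657 to 14182870 and Mmp9 (ENSRNOG00000017539) on 3 from 153683858 to 153692120. Timp1 (ENSRNOG00000010208) lies on X from 1212972 to 1217664 and Timp3 (ENSRNOG00000004303) on 7 from 17521919 to 17571839. All 9 are annotated as protein-coding. Timp1 overlaps Syn1 and Timp3 overlaps Syn3 on the opposite strand, and whether counting used strand is not given in the sources used here. Over the 12 libraries Syn1 had 3 reads beside 5886 of Timp1, and Syn3 had 8 beside 91 of Timp3. Mmp12 overlaps Mmp1b, which had 0 reads.

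The promoters of the 4 clustered genes are shown because these genes hold most of the calls described below and because the sequences share 2 motifs. Each is the 250 bases before the annotated start of transcription in RefSeq's build GRCr8, plus strand. Capitals mark TGAGTCA or its reverse complement TGACTCA, the letters bound by AP-1 (dimers of Fos and Jun proteins), searched on both strands, and TATAAA, the TATA box, searched on the gene's strand.
Mmp3, chr8:12925031-12925280: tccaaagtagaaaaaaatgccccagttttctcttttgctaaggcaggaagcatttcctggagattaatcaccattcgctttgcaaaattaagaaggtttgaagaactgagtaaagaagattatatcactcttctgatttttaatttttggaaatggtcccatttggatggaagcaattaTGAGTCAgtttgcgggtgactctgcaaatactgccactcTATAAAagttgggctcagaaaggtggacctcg
Mmp10, chr8:12974457-12974706: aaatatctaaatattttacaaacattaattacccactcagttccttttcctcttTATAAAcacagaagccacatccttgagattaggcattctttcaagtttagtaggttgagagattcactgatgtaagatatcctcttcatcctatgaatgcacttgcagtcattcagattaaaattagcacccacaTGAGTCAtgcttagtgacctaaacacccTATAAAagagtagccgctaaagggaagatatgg
Mmp12, chr8:12866402-12866651: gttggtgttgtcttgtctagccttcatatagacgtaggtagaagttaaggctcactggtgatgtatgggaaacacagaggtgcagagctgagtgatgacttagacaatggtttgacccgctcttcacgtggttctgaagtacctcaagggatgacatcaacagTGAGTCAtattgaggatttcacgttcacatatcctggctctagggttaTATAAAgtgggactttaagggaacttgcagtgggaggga
Mmp13, chr8:12782579-12782828: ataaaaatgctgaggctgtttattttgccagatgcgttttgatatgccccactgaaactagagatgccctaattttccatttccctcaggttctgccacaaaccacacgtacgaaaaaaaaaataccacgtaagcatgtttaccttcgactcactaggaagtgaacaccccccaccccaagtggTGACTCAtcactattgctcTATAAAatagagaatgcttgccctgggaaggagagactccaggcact
The AP-1 letters begin 71 bases before the start in Mmp3, 61 in Mmp10, 87 in Mmp12 and 66 in Mmp13. TATAAA begins 32 bases before the start in Mmp3, 39 in Mmp12, 47 in Mmp13, and both 196 and 33 in Mmp10. No AP-1 match overlaps a TATAAA match. Of the 9 genes, 6 had a promoter in the table used here. Neither set of exact letters was found in the windows of Timp1 and Timp3. Variant AP-1 sites were not searched for, and the Timp1 window holds tgagtaa, a near match that was not counted. Absence of a match is therefore not absence of an AP-1 site. Mmp2, Mmp9 and Mmp14 were not matched. Over all 33469 promoters of this length 4.05% hold the AP-1 letters and 8.06% hold TATAAA. A match describes the letters only.

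Before the comparisons, 4 libraries call for mention. Control 1 had 43226 RPM of the stromal collagen Col1a1 against 15470 and 16832 in the other Control libraries, and it was also the highest Control library in Mmp2, Mmp14, Timp1 and Timp3. The libraries SF/HA-HEP-PAM 3, SF/HA 2 and Alkali-burned 1 had the top level of Mmp9 in each group, and likewise of S100a8 and S100a9, which are abundant in neutrophils. The 4 libraries were thus named partly by levels of the genes followed here. Calls kept, gained or lost without them are not independent of that choice. S100a9 and S100a8 carried nearly all of the 12-gene neutrophil list, of which 4 were tested, and Csf3r and Cxcr2 were at 0 to 10.02 RPM. The list summed to 361 to 403 RPM in Control, against 1306 to 6679 after the burn, 1741 to 17383 with the SF/HA patch and 2175 to 19945 with the SF/HA-HEP-PAM patch. Mpo, Ltf and Fpr1 were at 0 in all 12 libraries, and Mmp8, the neutrophil collagenase, had 1 read in all. Krt12, a keratin that defines corneal epithelium, measured at least 7402 RPM and Kera, a proteoglycan of keratocytes, at least 367 RPM in every library. In RNA of whole corneas, fewer cells of a type and less RNA per cell cannot be told apart.

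**Figure D1:**
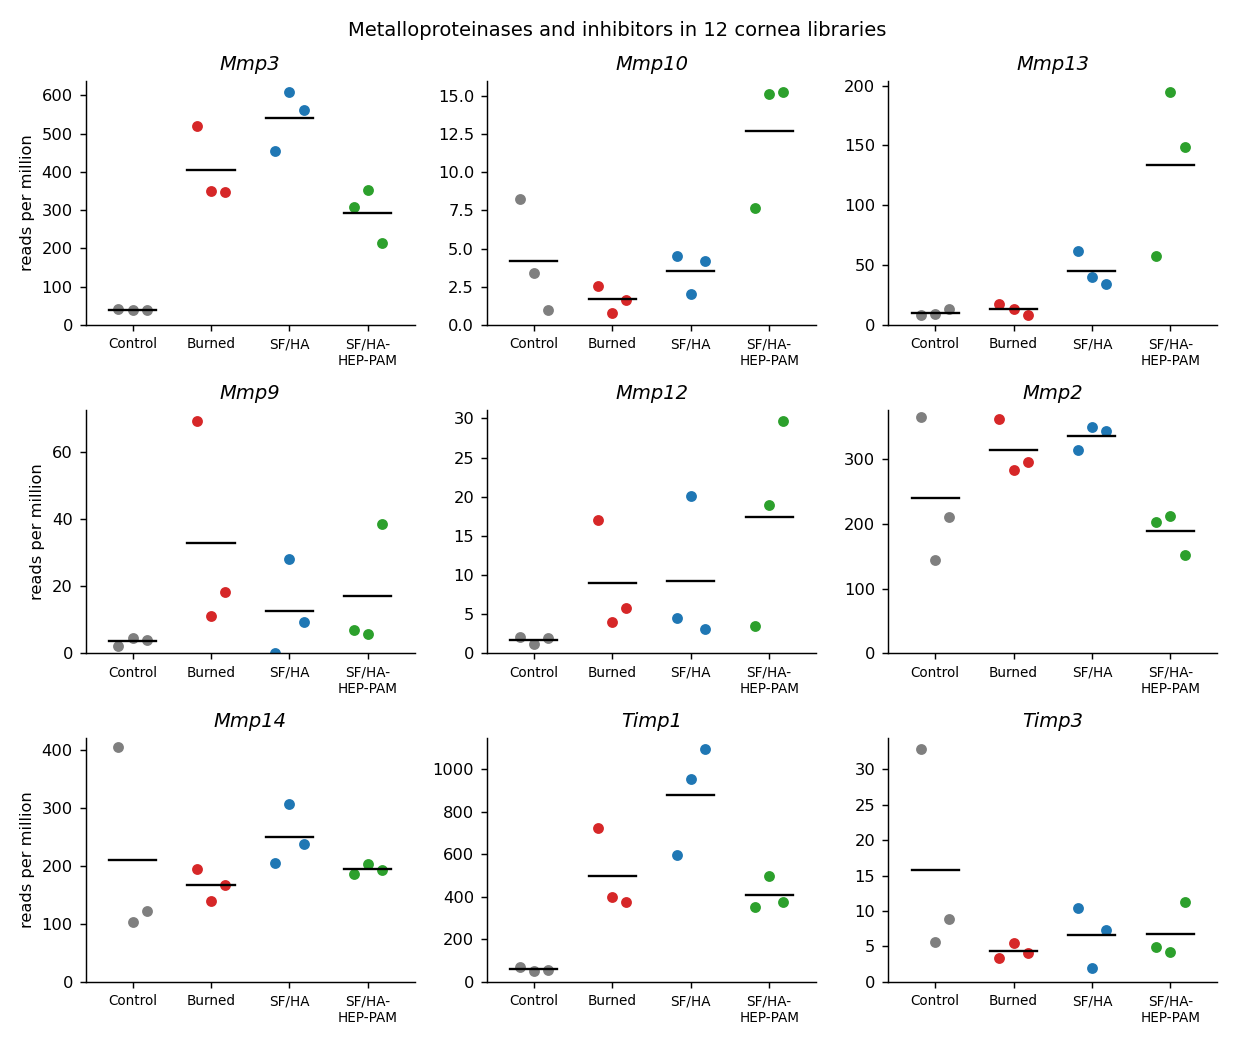
RPM of 9 genes in 12 libraries, 1 panel per gene with its own linear axis from 0; points are libraries and horizontal lines are group means. Mmp3 and Timp1 in Control (38.4 to 41.1 and 50.8 to 69.9 RPM) lie below every other library, and the highest Mmp13 and Mmp10 levels are in SF/HA-HEP-PAM (up to 195 and 15.3 RPM).

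Alkali-burned corneas had about 10.2 times the Control mean of the stromelysin Mmp3 and 8.40 times that of the inhibitor Timp1, while the other 7 genes were not called. Of 9 genes, 2 rose and 0 fell, where 7.26% of all genes tested were called, 5.18% higher and 2.08% lower. The burned and Control libraries did not overlap in 5 of the 9, where 26.8% of all genes did not overlap. Of these 5, Mmp3, Mmp9, Mmp12 and Timp1 were higher and Timp3 was lower, where 15.8% of all genes did not overlap and were higher. Mmp3 and Timp1 were also the 2 genes called without the 4 libraries named above. The median log2 difference was 0.48 over the 9 genes and 0.02 over all genes tested.

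When SF/HA was compared with Alkali-burned corneas, the collagenase Mmp13 rose and none of the 9 fell. That is 1 gene of 9, where 3.12% of all genes were called, 0.806% higher and 2.32% lower. Mmp13 and Mmp14 did not overlap and were higher, 2 of 9, where 21.1% of all genes did not overlap, 9.08% with SF/HA higher. Leaving out the 4 libraries gave 2 calls, Mmp13 and Timp1, which are not independent of how those libraries were chosen.

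Mmp13 and the stromelysin Mmp10 rose in SF/HA-HEP-PAM against Alkali-burned corneas, and none of the 9 fell. Among all genes 16.1% were called, 11.8% higher and 4.32% lower, so 2 of 9 is near the background. Mmp10 and Mmp13 (higher) and Mmp2 (lower) did not overlap, 3 of 9, where 46.2% of all genes did not overlap, 29.6% higher and 16.6% lower. Without the 4 libraries Mmp13 was still called and Mmp10 was not tested.

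The direct comparison of the 2 patches, SF/HA-HEP-PAM against SF/HA, called Mmp13 higher and Timp1 lower. This is 2 of 9, where 7.98% of all genes were called, 7.12% higher and 0.866% lower. The libraries of 5 of the 9 did not overlap, where 31.4% of all genes did not. Mmp10 was the 1 higher (23.8% of all genes), and Mmp2, Mmp3, Mmp14 and Timp1 were the 4 lower (7.54% of all). Without the 4 libraries neither was called, at 1.17 for Mmp13 (limma adjusted p = 0.0709) and -0.95 for Timp1 (adjusted p = 0.00646), the latter under the 2-fold threshold only.

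Against Control, Mmp3, Timp1 and Mmp13 rose in SF/HA, 3 of 9, where 6.58% of all genes were called, 4.50% higher and 2.08% lower. Including Mmp12, 4 of 9 did not overlap and were higher, where 21.1% of all genes did not overlap, 11.3% higher and 9.81% lower. These 3 genes and also Mmp10 and Mmp12 rose in SF/HA-HEP-PAM, 5 of 9, where 16.0% of all genes were called, 13.0% higher and 2.94% lower. Mmp3, Mmp9, Mmp12, Mmp13 and Timp1 did not overlap and were higher, 5 of 9, where 36.0% of all genes did not overlap, 26.2% higher and 9.74% lower. Without the 4 libraries Mmp3, Timp1 and Mmp13 were called against Control for both patches, and Mmp10 and Mmp12 were not tested. These comparisons share libraries, so their values are set side by side and are not independent.

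The median of all genes lay at 0.16 on the log2 scale in SF/HA-HEP-PAM against Alkali-burned, 0.23 against SF/HA and 0.22 against Control. Scaling by median of ratios brought these medians to -0.00, 0.04 and 0.04. With reads thinned to the depth of the smallest library they were 0.16, 0.21 and 0.20. Of the genes called in these 3 comparisons, 73.2%, 89.2% and 81.6% were higher, and 58.2%, 68.1% and 68.6% with median-of-ratios scaling. Quantile normalization gave 53.6%, 63.2% and 57.8%. Differences in SF/HA-HEP-PAM are read against those medians.

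**Figure D2:**
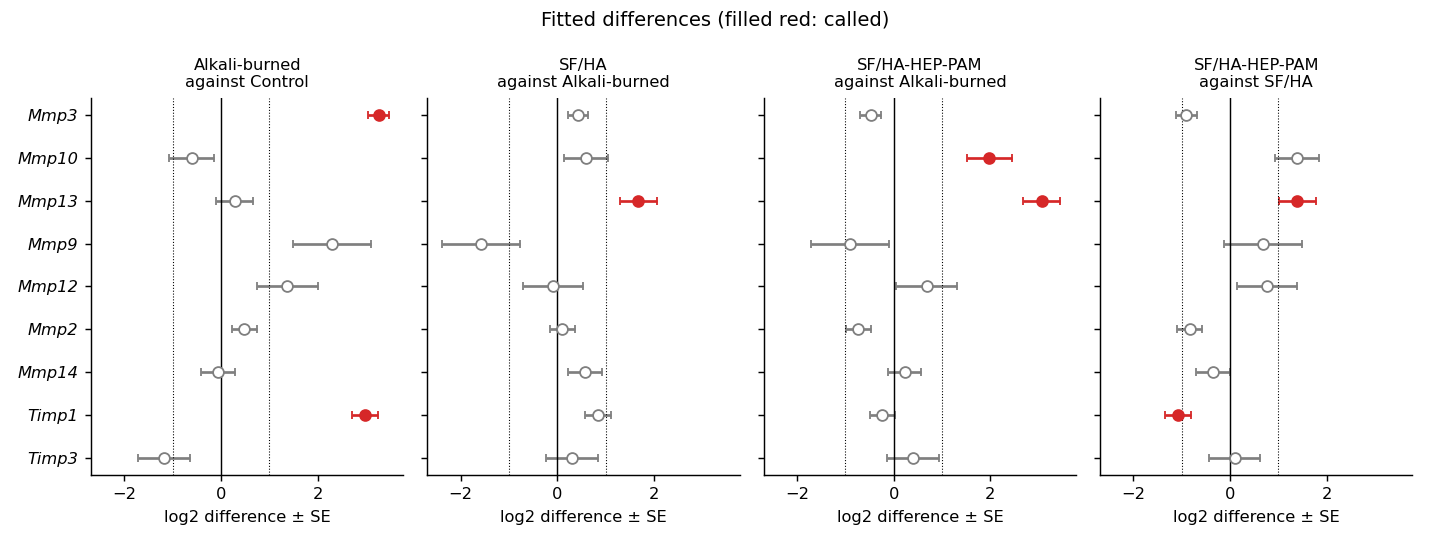
Log2 differences of RPM plus 2, with standard errors, for 9 genes in 4 comparisons of 3 libraries each; filled red points are called and dotted lines mark the 2-fold threshold. Mmp3 (3.27) and Timp1 (2.98) stand apart after the burn, and Mmp13 is filled in the other 3 panels (1.67, 3.06 and 1.39).

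The stromelysins Mmp3 and Mmp10 cut proteoglycans, fibronectin and laminin and can activate other proenzymes. Mmp3 measured 41.1, 39.5 and 38.4 RPM in Control and 520, 350 and 347 in Alkali-burned libraries. It measured 454, 609 and 561 RPM in SF/HA and 308, 352 and 215 in SF/HA-HEP-PAM. Control was low in all 3 libraries and did not overlap any other group. Folds given with a log2 difference come from the fit of RPM plus 2 and are not ratios of group means. On that scale Mmp3 rose 9.61-fold after the burn (log2 3.27, SE 0.22, limma adjusted p = 1.00e-07). It was also higher than Control in SF/HA (log2 3.69, SE 0.22, adjusted p = 2.69e-08) and in SF/HA-HEP-PAM (2.79, SE 0.22, adjusted p = 1.25e-06).

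Among the groups outside Control the order of Mmp3 means was SF/HA at 541 ± 79.6 RPM, Alkali-burned at 406 ± 98.8 and SF/HA-HEP-PAM at 292 ± 69.8 (SD, n = 3). Neighbours in this order overlapped. SF/HA against Alkali-burned gave a log2 difference of 0.43 (SE 0.22, adjusted p = 0.366), and SF/HA-HEP-PAM against Alkali-burned gave -0.48 (SE 0.22, adjusted p = 0.128). All 3 SF/HA-HEP-PAM libraries lay below all 3 SF/HA libraries. That difference passed the p threshold but not the 2-fold threshold (log2 -0.91, SE 0.22, adjusted p = 0.0132). With median-of-ratios scaling it passed both (-1.12, adjusted p = 0.00581), as it did without SF/HA 1 (-1.03, adjusted p = 0.0186) or without SF/HA-HEP-PAM 2 (-1.06, adjusted p = 0.0151). It passed neither without SF/HA 3 (-0.88, adjusted p = 0.0565) or without SF/HA-HEP-PAM 3 (-0.70, adjusted p = 0.0956).

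Mmp10 was sparse: its reads numbered 4, 3 and 1 in Control, 3, 1 and 2 in Alkali-burned, 3, 1 and 4 in SF/HA, and 11, 32 and 19 in SF/HA-HEP-PAM. In RPM the SF/HA-HEP-PAM libraries measured 7.68, 15.1 and 15.3 and the burned ones 2.56, 0.790 and 1.64. These groups did not overlap, and every SF/HA library (4.49, 2.00 and 4.18 RPM) was also below them. Mmp10 passed the filter of 5 RPM in 3 libraries only through SF/HA-HEP-PAM, where it is high, so its calls there are not independent of the filter. Mmp10 rose in SF/HA-HEP-PAM against Alkali-burned (log2 1.98, SE 0.46, adjusted p = 0.00525, and 0.0142 with no filter). The ratio of pooled reads, scaled to pooled depth, was 7.88, with a 95% exact interval of 3.42 to 22.3. The call held without each library in turn (adjusted p up to 0.0325), but with a pseudocount of 10 the log2 difference was 0.94, under the 2-fold threshold.

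Against SF/HA the log2 difference of Mmp10 was 1.38 (SE 0.46, adjusted p = 0.0658), which was not called. The ratio was 3.43 (1.64 to 8.30), an interval that leaves out the spread between libraries. With library weights (1.33, adjusted p = 0.0369) and on the 2 groups alone (adjusted p = 0.0406) it was called. Without each library in turn the difference was 1.16 to 1.66 (adjusted p up to 0.226). Against Control Mmp10 was called (1.37, SE 0.46, adjusted p = 0.0430) although Control 1 overlapped SF/HA-HEP-PAM, the Control libraries being at 8.23, 3.38 and 0.984 RPM. That call was lost without Control 2 (1.36, adjusted p = 0.0897), Control 3 (0.94, adjusted p = 0.194), SF/HA-HEP-PAM 2 (1.24, adjusted p = 0.141) or SF/HA-HEP-PAM 3 (1.23, adjusted p = 0.162). It was also lost with no filter (adjusted p = 0.0892), with median-of-ratios scaling (1.22, adjusted p = 0.0702), with quantile normalization (1.08, adjusted p = 0.106) and on the 2 groups alone (adjusted p = 0.0716). Pseudocounts of 0.5 (1.77, adjusted p = 0.0752) and 10 (0.69), log2 of FPKM plus 1 (0.79) and thinned reads (1.40, adjusted p = 0.0944) lost it too. Mmp10 was not called after the burn, at a log2 difference of -0.61 (SE 0.46, adjusted p = 0.480).

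Mmp13, the main interstitial collagenase of rodents, cuts fibrillar collagen. It measured 8.23, 9.03 and 12.8 RPM in Control and 17.05, 13.4 and 8.22 in Alkali-burned, 2 groups that overlapped. In SF/HA it measured 61.4, 40.1 and 34.5 RPM, and in SF/HA-HEP-PAM 57.3, 195 and 149. All 6 libraries with a patch were above all 6 without. The log2 difference after the burn was 0.28 (SE 0.38, adjusted p = 0.720).

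Mmp13 rose 8.36-fold in SF/HA-HEP-PAM against Alkali-burned (log2 3.06, SE 0.38, adjusted p = 2.79e-05). It was called without each library in turn, at 2.71 to 3.58, and at 2.88 with median-of-ratios scaling. In SF/HA against Alkali-burned it rose 3.19-fold (log2 1.67, SE 0.38, adjusted p = 0.0179). This second call was lost without Alkali-burned 2 (1.72, adjusted p = 0.0692), Alkali-burned 3 (1.42, adjusted p = 0.127), SF/HA 1 (1.44, adjusted p = 0.0924) or SF/HA 2 (1.74, adjusted p = 0.0593), with the log2 difference above 1 in each. It was also lost with voom (1.79, adjusted p = 0.0710) and on log2 of FPKM plus 1 (1.25, adjusted p = 0.102). Reads thinned to the depth of the smallest library lost it too (1.31, adjusted p = 0.0863). Without the 4 libraries that stood apart it was kept (1.94, adjusted p = 0.00715). Among those left out was Alkali-burned 1, the burned library with the highest Mmp13. The call kept there is therefore not independent of the choice of libraries.

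The patch groups overlapped in Mmp13, since SF/HA-HEP-PAM 1 (57.3 RPM, 95% Wilson interval 46.1 to 71.1) lay below SF/HA 1 (61.4, interval 45.3 to 83.3). The other 2 SF/HA-HEP-PAM libraries were above every SF/HA library. The difference between patches was called (log2 1.39, SE 0.38, adjusted p = 0.0272) and was lost without SF/HA 2 (1.33, adjusted p = 0.0646), SF/HA 3 (1.22, adjusted p = 0.120), SF/HA-HEP-PAM 2 (1.04, adjusted p = 0.134) or SF/HA-HEP-PAM 3 (1.23, adjusted p = 0.129). It was also lost with median-of-ratios scaling (1.18, adjusted p = 0.0700), quantile normalization (1.12, adjusted p = 0.0905) and log2 of FPKM plus 1 (1.26, adjusted p = 0.0583). Against Control Mmp13 rose in SF/HA (1.95, SE 0.38, adjusted p = 0.00331; 2.01, adjusted p = 0.0626 with voom) and in SF/HA-HEP-PAM (3.35, SE 0.38, adjusted p = 1.40e-05). Corneal epithelium markers were higher in SF/HA-HEP-PAM than in Alkali-burned libraries, where 7 of 10 tested rose beside 11.8% of all genes. Their summed level was 31831 to 36105 RPM against 13933 to 23467. In Control they summed to 20943 to 40839 RPM and in SF/HA to 20343 to 27449. Their part in the Mmp13 and Mmp10 differences was not tested.

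The gelatinases Mmp2 and Mmp9 degrade denatured collagen and the type IV collagen of basement membranes. Mmp9 measured 2.06, 4.51 and 3.94 RPM in Control and 69.0, 11.1 and 18.1 in Alkali-burned. It measured 0, 28.1 and 9.40 RPM in SF/HA and 6.98, 5.67 and 38.5 in SF/HA-HEP-PAM. Every burned library was above every Control library, but the burned group spread over 11.1 to 69.0 RPM. The 0 in SF/HA 1 allows up to 4.49 RPM.

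The log2 difference of Mmp9 after the burn was 2.30 (SE 0.81, adjusted p = 0.0902), which was not called. Fitted on the 2 groups alone it was called (adjusted p = 0.0286), and without Alkali-burned 1 the log2 difference was 1.59 (adjusted p = 0.352). The ratio of pooled reads, scaled to pooled depth, was 8.49 (95% exact interval 4.32 to 19.0), which leaves out the spread between libraries. Mmp9 was not called in the other 5 comparisons, with adjusted p from 0.251 to 0.658. In SF/HA against Alkali-burned it gave -1.59 (SE 0.81, adjusted p = 0.373).

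Mmp12, macrophage elastase, cuts elastin. Its reads were 1, 1 and 2 in Control, 20, 5 and 7 in Alkali-burned, 3, 10 and 3 in SF/HA, and 5, 40 and 37 in SF/HA-HEP-PAM. In RPM the libraries of Control measured 2.06, 1.13 and 1.97, those of Alkali-burned 17.05, 3.95 and 5.75, those of SF/HA 4.49, 20.04 and 3.13, and those of SF/HA-HEP-PAM 3.49, 18.9 and 29.7. All 9 libraries outside Control were above all 3 Control libraries. The log2 difference was 1.37 for Alkali-burned (SE 0.63, adjusted p = 0.203) and 1.29 for SF/HA (SE 0.63, adjusted p = 0.245), neither called.

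Mmp12 was called in SF/HA-HEP-PAM against Control (log2 2.06, SE 0.63, adjusted p = 0.0268; ratio of pooled reads, scaled to pooled depth, 10.2, interval 3.84 to 38.4). It was lost without Control 2 (1.94, adjusted p = 0.0732), Control 3 (2.11, adjusted p = 0.0573), SF/HA-HEP-PAM 2 (1.84, adjusted p = 0.099997) or SF/HA-HEP-PAM 3 (1.54, adjusted p = 0.157), and with voom (2.54, adjusted p = 0.136). It was also lost with quantile normalization (1.48, adjusted p = 0.122), on log2 of FPKM plus 1 (0.77, adjusted p = 0.118) and with no filter (2.06, adjusted p = 0.0539). Of 14 macrophage markers 11 were tested, and 10 of them rose after the burn, where 5.18% of all genes were called higher. The list summed to 251 to 280 RPM in Control, against 831 to 989 after the burn, 769 to 881 with SF/HA-HEP-PAM and 820 to 1785 with SF/HA, so its sum too separated Control from the rest. Against Control 9 of the 11 were called higher and 0 lower in each patch group, beside 4.50% (SF/HA) and 13.0% (SF/HA-HEP-PAM) of all genes higher. Cd68 overlapped Control (90.5 to 149 RPM) in both, at 105 to 145 with SF/HA and 87.4 to 120 with SF/HA-HEP-PAM. Within the 3 groups outside Control the highest Mmp12 library was Alkali-burned 1, SF/HA 2 or SF/HA-HEP-PAM 3, the same libraries that were highest in S100a8 (794, 1715 and 1806 RPM). The part of these cell markers in the Mmp9 and Mmp12 values was not tested.

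**Figure D3:**
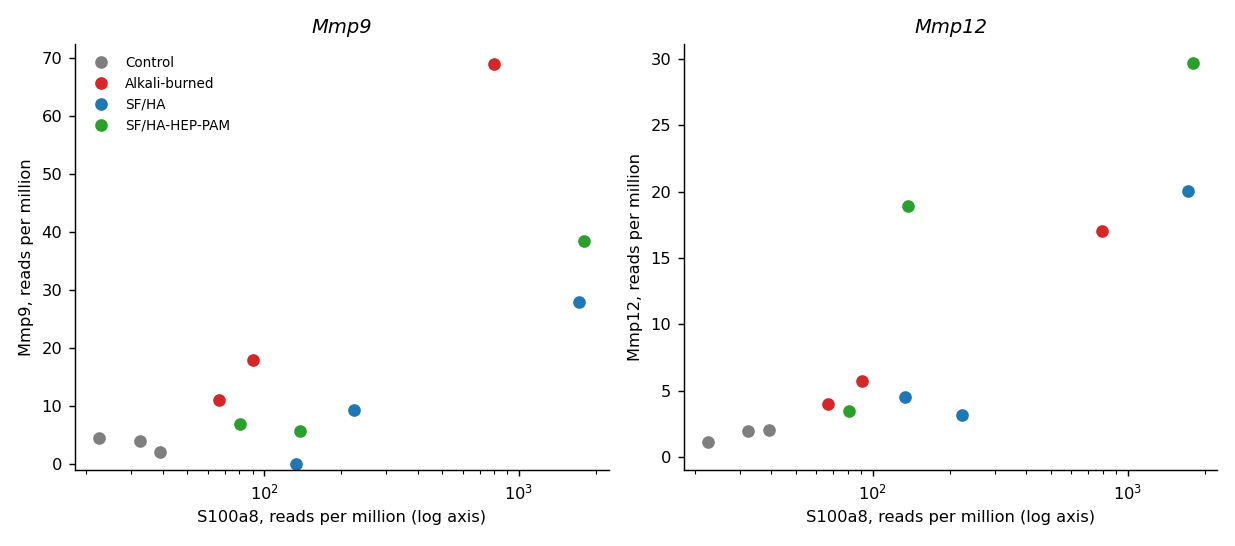
RPM of Mmp9 (left) and Mmp12 (right) against RPM of S100a8 on a log axis; each point is 1 of 12 libraries, coloured by group. The 3 libraries with S100a8 of 794 to 1806 RPM hold the highest Mmp9 of their groups (69.0, 28.1 and 38.5 RPM) and the highest Mmp12 of their groups (17.05, 20.04 and 29.7 RPM).

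Mmp2 measured 366, 144 and 211 RPM in Control, 363, 284 and 296 in Alkali-burned, 314, 351 and 345 in SF/HA, and 203, 213 and 152 in SF/HA-HEP-PAM. SF/HA-HEP-PAM was low in all 3 libraries and overlapped neither Alkali-burned nor SF/HA. Control overlapped every other group. Against SF/HA the difference passed the p threshold but not the 2-fold threshold (log2 -0.84, SE 0.26, adjusted p = 0.0477), and it passed both with median-of-ratios scaling (-1.05, adjusted p = 0.0133). Leaving out any 1 library of the 2 groups ended the pass at the p threshold, with log2 differences of -0.93 to -0.69 and adjusted p from 0.0694 to 0.200. Against Alkali-burned it was -0.73 (SE 0.26, adjusted p = 0.0523). After the burn the log2 difference was 0.48 (SE 0.26, adjusted p = 0.290).

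The keratocyte and stroma markers were low beside Mmp2 in SF/HA-HEP-PAM. Their 9 measured genes summed to 12371 to 21637 RPM in SF/HA-HEP-PAM, against 35158 to 37864 with SF/HA, 27514 to 35953 after the burn and 33117 to 85853 in Control. In SF/HA-HEP-PAM against SF/HA, 3 of these 9 fell and 0 rose, beside 0.866% and 7.12% of all genes. Among the 3 were the proteoglycans Dcn (-1.21) and Lum (-1.11). Their part in the differences of Mmp2, Mmp3 and Timp1 between the patches was not tested.

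Mmp14, the membrane-anchored protease that activates pro-Mmp2, was not called in any of the 6 comparisons (adjusted p from 0.432 to 0.943). It measured 405, 104 and 121 RPM in Control, 194, 140 and 166 in Alkali-burned, 205, 307 and 238 in SF/HA, and 186, 202 and 193 in SF/HA-HEP-PAM. The widest spread was in Control, where Control 1 was highest of all 12 libraries. Without Control 1 Mmp14 was called in SF/HA against Control (log2 1.12, adjusted p = 0.00118; 0.51, adjusted p = 0.432 with it). All 3 SF/HA libraries were above all 3 burned ones, at a log2 difference of 0.57 (SE 0.35, adjusted p = 0.483).

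Among the inhibitors, Timp1 is the secreted form that inflammation induces. It measured 69.9, 50.8 and 57.1 RPM in Control and 721, 398 and 375 in Alkali-burned. It measured 594, 952 and 1094 RPM in SF/HA and 353, 495 and 377 in SF/HA-HEP-PAM. As for Mmp3, Control was low throughout and overlapped no group. Timp1 rose 7.86-fold after the burn (log2 2.98, SE 0.26, adjusted p = 1.58e-06) and was higher than Control in SF/HA (3.81, SE 0.26, adjusted p = 1.38e-07) and SF/HA-HEP-PAM (2.74, SE 0.26, adjusted p = 3.27e-06). Of 4 myofibroblast markers 3 were tested, and all 3 rose after the burn, where 5.18% of all genes were called higher. The list summed to 29.3 to 49.4 RPM in Control, 396 to 725 after the burn, 65.6 to 171 with SF/HA-HEP-PAM and 110 to 497 with SF/HA. The part of these markers in the Timp1 and Mmp3 differences was not tested.

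The mean of Timp1 was 880 ± 258 RPM in SF/HA, 498 ± 194 in Alkali-burned and 408 ± 76.0 in SF/HA-HEP-PAM (SD, n = 3). SF/HA against Alkali-burned gave 0.84 (SE 0.26, adjusted p = 0.104), with SF/HA 1 below Alkali-burned 1. It was called without Alkali-burned 1 (1.14, adjusted p = 0.0184) or without SF/HA 1 (1.10, adjusted p = 0.0428), and leaving out any other library of these groups gave 0.66 to 0.76 (adjusted p from 0.264 to 0.401). All 3 SF/HA-HEP-PAM libraries were below all 3 SF/HA libraries, and Timp1 fell in that comparison (log2 -1.07, SE 0.26, adjusted p = 0.0155). The call was lost without SF/HA 2 (-0.99, adjusted p = 0.0443), SF/HA 3 (-0.89, adjusted p = 0.0911), SF/HA-HEP-PAM 1 (-0.98, adjusted p = 0.0766) or SF/HA-HEP-PAM 3 (-1.03, adjusted p = 0.0692). Alkali-burned and SF/HA-HEP-PAM overlapped (-0.24, SE 0.26, adjusted p = 0.572).

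Timp3, the inhibitor that binds to matrix, had 1 to 16 reads per library and was not called in any comparison. It measured 32.9, 5.64 and 8.86 RPM in Control, 3.41, 5.53 and 4.11 in Alkali-burned, 10.48, 2.00 and 7.31 in SF/HA, and 4.89, 4.25 and 11.2 in SF/HA-HEP-PAM. The burned libraries were all below the Control ones, the closest pair being 5.53 and 5.64 RPM. The log2 difference was -1.18 (SE 0.53, adjusted p = 0.197), and without the 4 libraries that stood apart it was -0.43 (adjusted p = 0.591).

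The makeup of the summed reads of the 7 proteases differed between Control and the other groups. Mmp2 and Mmp14 together took 86.3% ± 5.80 of the metalloproteinase reads in Control, against 51.6% ± 3.97 after the burn, 49.0% ± 0.696 with SF/HA and 45.1% ± 4.66 with SF/HA-HEP-PAM (SD, n = 3). The other 5 proteases summed to 59.1 ± 2.26 RPM in Control and to 462 ± 142, 612 ± 87.6 and 472 ± 104 RPM in the other groups, in that order. Per read of Timp1 and Timp3 there were 6.48 ± 1.43 metalloproteinase reads in Control, against 1.95 ± 0.298 after the burn, 2.07 ± 0.0816 with SF/HA-HEP-PAM and 1.41 ± 0.321 with SF/HA. The range in Control, 5.42 to 8.10, did not overlap the range of the other 9 libraries, 1.08 to 2.23. These are descriptions of reads with no test. They depend on which genes the list holds and say nothing of protein or activity.

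**Figure D4:**
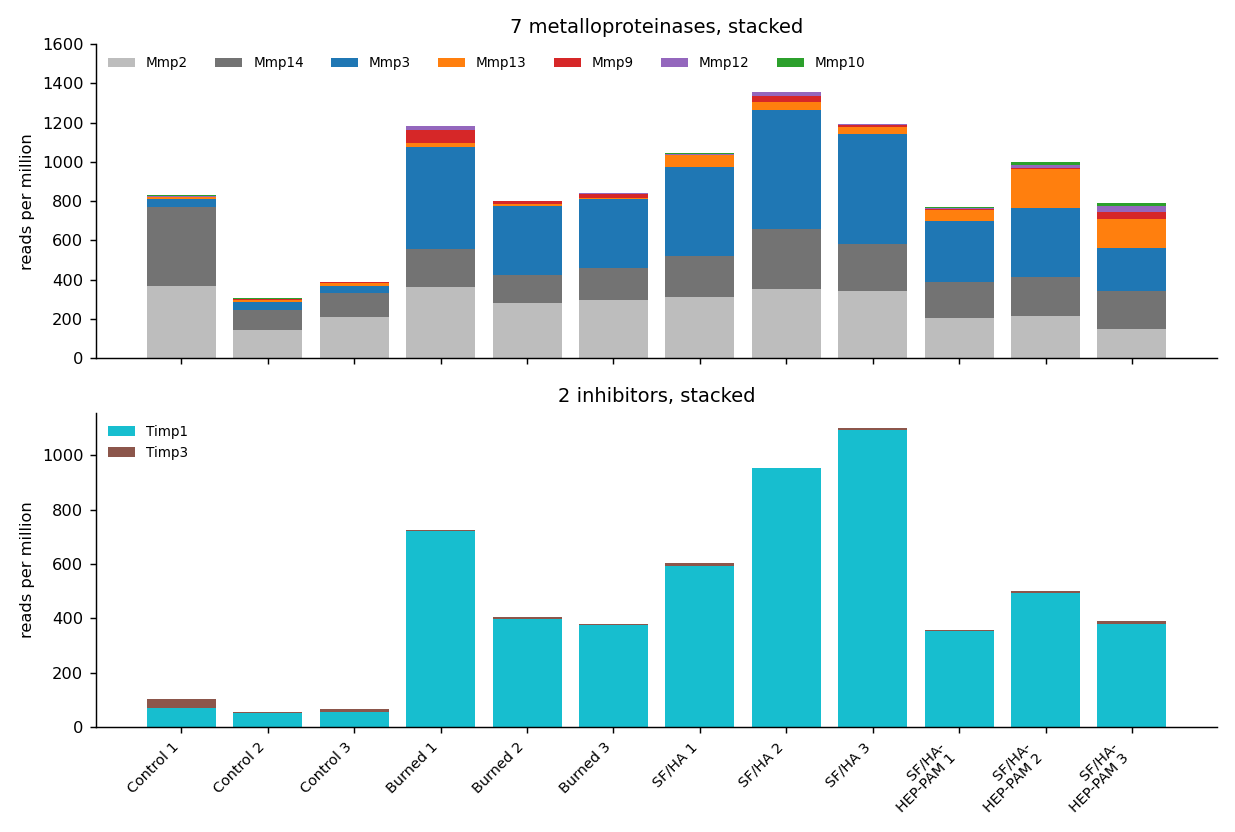
Stacked RPM of 7 metalloproteinases (upper panel) and of Timp1 and Timp3 (lower panel) in each of 12 libraries, on linear axes from 0. The inhibitor bars are 56.4 to 103 RPM in Control and 358 to 1102 RPM elsewhere, and the orange Mmp13 segment is tallest in SF/HA-HEP-PAM 2 (195 RPM).

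Along the cluster on chromosome 8 all 4 genes were called higher in SF/HA-HEP-PAM against Control, where 13.0% of all genes were called higher. The calls of Mmp10 and Mmp12 were lost under several alternatives given above. Mmp10 also passed the filter only through SF/HA-HEP-PAM. Mmp3 and Mmp12 were above every Control library in all 9 other libraries, Mmp13 was so in the 6 patch libraries, and Mmp10 overlapped Control in each group. A difference in pattern between the genes was not tested. The other 6 genes of the cluster in the table, Mmp1b, Mmp1, Mmp8, Mmp27, Mmp20 and Mmp7, had 0 to 2 reads over the 12 libraries.

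**Figure D5:**
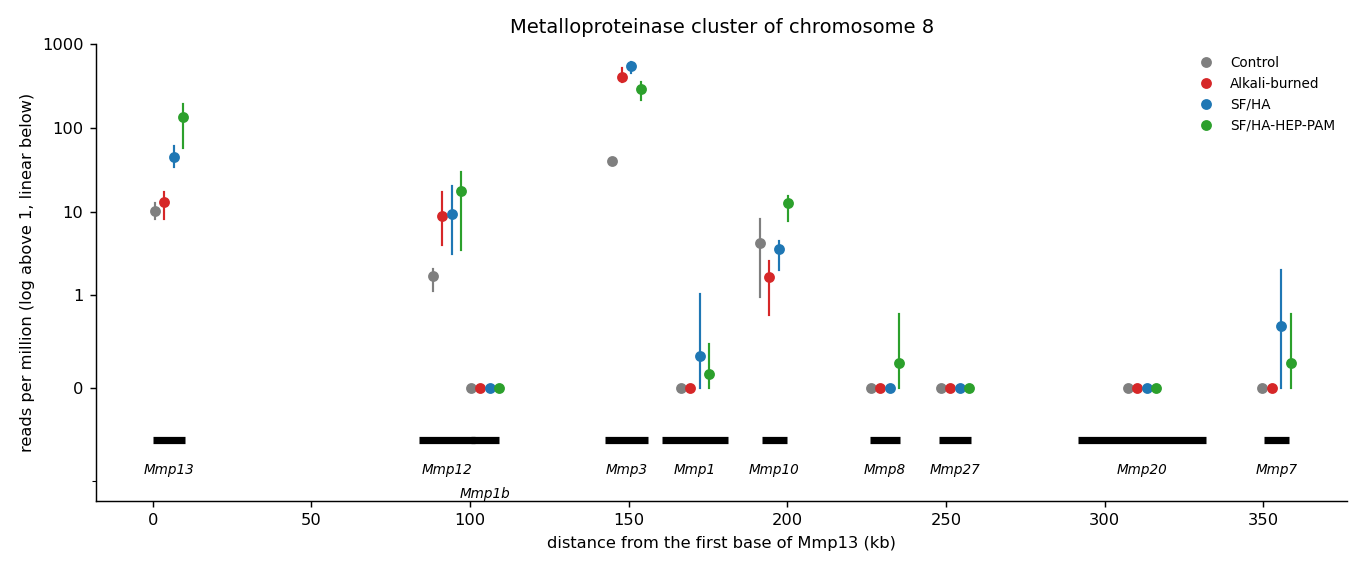
Mean RPM per group of 10 metalloproteinase genes along chromosome 8, by distance from the first base of Mmp13; vertical lines run from the lowest to the highest of 3 libraries, black bars are gene spans, and the y axis is log above 1 and linear below, with points of a gene set side by side for legibility. Mmp3 in Control (39.7 RPM) is the lowest point of that gene, and Mmp13 has its lowest mean in Control (10.02 RPM) and its highest in SF/HA-HEP-PAM (133 RPM).

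The genes whose pattern over the 12 libraries was most like that of each member were taken by the mean absolute difference of standardized log2 levels, in SD units, among genes of at least 20 RPM. For Mmp3 they were Serping1 (0.0917), C1s (0.127) and Fam20c (0.132), where the median over 4587 genes was 1.11. For Timp1 they were Chi3l1 (0.0852), Serping1 (0.122) and Mmp3 itself (0.137). Serping1 and C1s encode an inhibitor and a protease of the classical complement pathway, and Chi3l1 a secreted glycoprotein.

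Serping1 averaged 158 RPM in Control, 1424 in SF/HA, 1113 in Alkali-burned and 749.5 in SF/HA-HEP-PAM, the same order of groups as Mmp3. Mmp13 was most like Rela (0.191), Pcbp1 (0.228) and Glb1 (0.243), and Mmp10 like Map7d1 (0.235), Tial1 (0.241) and Map3k2 (0.310). For Mmp12 the list was S100a8 (0.286), Alas1 (0.323) and S100a9 (0.325), and for Mmp2 it was the stromal proteoglycan Lum (0.202), Ifitm2 (0.232) and Wipi1 (0.250). The closest genes were Tlr2 (0.361) for Mmp9, Ccdc50 (0.260) for Mmp14 and Ccz1b (0.344) for Timp3. The libraries share depth and group structure, so these values describe the 12 libraries only.

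The counts of the lists from here on are read beside the shares of all genes called. After the burn these were 5.18% higher and 2.08% lower, and in SF/HA against Alkali-burned 0.806% and 2.32%. In SF/HA-HEP-PAM they were 11.8% and 4.32% against Alkali-burned, and 7.12% and 0.866% against SF/HA. Of 16 other metalloproteinases and Timp4, 5 were tested. Mmp19, which cuts basement membrane proteins, rose after the burn (log2 1.31, SE 0.34, adjusted p = 0.0206) and was higher than Control in SF/HA (1.49) and SF/HA-HEP-PAM (1.21). None of the 5 was called in the 3 comparisons without Control. Of 12 tested ADAM and ADAMTS proteases, 2 rose after the burn, the aggrecanase Adamts4 (1.71) and Adam12 (2.16), and 10 were not called.

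Of these 12, 3 rose and 1 fell in SF/HA-HEP-PAM against Alkali-burned, where 11.8% of all genes were called higher and 4.32% lower. Adam9, a membrane protease, rose from 1.67 ± 1.45 to 48.4 ± 22.6 RPM (SD, n = 3; log2 3.75, SE 0.47, adjusted p = 2.79e-05). Adam8 (1.55) and the TNF-releasing Adam17 (1.01) also rose, and Adam12 fell (-1.31). Against SF/HA, Adam9 (2.89), Adam8 (1.18) and Adam17 (1.31) rose and none fell. Adam9 averaged 1.41 ± 1.23 RPM in Control and 4.39 ± 1.52 in SF/HA. Like Mmp10, it passed the filter of 5 RPM in 3 libraries only with SF/HA-HEP-PAM, where it is high. Its calls there are therefore not independent of the filter. The median over the 12 was 0.32 against Alkali-burned and 0.03 against SF/HA, beside 0.16 and 0.23 over all genes.

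Plasminogen activators and their partners act upstream, since plasmin removes propeptides. Of 18 tested activators, inhibitors and binding partners, 4 rose and 3 fell after the burn. Those that rose were the plasminogen activators Plat (1.73) and Plau (1.19), the broad protease inhibitor A2m (1.55) and Serpine2 (1.44). Among those that fell were Sdc1 (-1.28), a cell surface proteoglycan, and Sparc (-1.24), a matrix-associated glycoprotein.

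In SF/HA against Alkali-burned, 1 of the 18 was called, Serpinb2, an inhibitor of plasminogen activators (log2 3.04, SE 0.55, adjusted p = 0.00389). In SF/HA-HEP-PAM against Alkali-burned 5 rose and 1 fell, where 11.8% of all genes were called higher and 4.32% lower. Serpinb2 rose from 6.66 ± 3.98 to 243 ± 147 RPM (log2 4.70, SE 0.55, adjusted p = 1.88e-05), Plau from 248 ± 116 to 642 ± 129 (1.44, adjusted p = 0.000869) and its receptor Plaur from 319 ± 39.1 to 917 ± 216 (1.495, adjusted p = 0.000366). Cd44 (1.23) and Sdc1 (1.21) also rose, and A2m fell (-1.26). Against SF/HA, Serpine2 (-1.42), Cst3 (-1.12) and A2m (-1.09) fell and none rose.

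Among 22 tested inducers and transcription factors, the cytokines Il6 (2.22), Tnf (1.82), Il1b (1.498) and Il1a (1.06) rose after the burn and Jund fell (-1.34). In SF/HA against Alkali-burned, 1 was called, Tnf (-1.96, SE 0.36, adjusted p = 0.00440), which fell. In SF/HA-HEP-PAM against Alkali-burned 5 rose, Areg (1.92), Ets2 (1.88), Jund (1.83), Fosl1 (1.53) and Runx1 (1.1997), and Tnf fell (-1.66). Among all genes 11.8% were called higher and 4.32% lower. Fosl1 and Jund encode AP-1 subunits. Of the other AP-1 genes on the list, Fos, Fosb, Fosl2 and Jun were not called there, and Junb was at 0 in every library. Fosl1 measured 132, 90.1 and 87.1 RPM in Alkali-burned and 300.3, 379 and 226 in SF/HA-HEP-PAM. These libraries did not overlap, where 29.6% of all genes did not overlap and were higher. Against SF/HA only Ets2 of the 22 was called (1.37). The median over the 22 was 0.72 against Alkali-burned, beside 0.16 over all genes.

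Of 20 tested matrix and basement membrane substrates, 4 rose and 6 fell after the burn. Tnc (2.29), Eln (2.13) and the type IV collagens Col4a2 (1.88) and Col4a1 (1.43) rose. Col6a1 (-2.01), Col1a1 (-1.91), Kera (-1.86), Col5a1 (-1.68), Col1a2 (-1.42) and Nid1 (-1.21) fell. None of the 20 was called in SF/HA against Alkali-burned by limma. In SF/HA-HEP-PAM against Alkali-burned 2 rose, among them the laminin chain Lama3 (2.09), and Col4a1 (-1.31) and Fn1 (-1.02) fell. Among all genes 11.8% were called higher and 4.32% lower, so the 2 that rose are near the background.

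Of 6 cathepsins, lysosomal proteases, 3 rose after the burn, Ctsz (2.82), Ctss (1.32) and Ctsb (1.26). None was called in SF/HA against Alkali-burned or in SF/HA-HEP-PAM against SF/HA. Ctsb (-1.19) and Ctsk (-1.01) fell in SF/HA-HEP-PAM against Alkali-burned.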

How the data were processed

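RNA of 12 rat cornea samples was reverse transcribed with barcoded poly(dT) primers that carry molecular identifiers, per the labels' protocols. The authors deposited FPKM values. The submitters' processing notes name STAR, featureCounts, fastp, bcl2fastq and DESeq2 with build mRatBN7.2, while the series text names HTSeq-count for counting. Whether duplicate molecules were collapsed is not given in the sources used here.

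The deposited length column, in bases, equals each gene's genomic span in all 30452 genes, and 108 lines naming no gene were left out. FPKM times length gave RPM and whole reads (largest deviation 9.18e-06 reads). Fits of log2(RPM + 2) used limma 3.58.1 in R 4.3.3, with 4 group means over all 12 libraries and a variance trend. A pseudocount on FPKM would weigh long genes less because of the span, so log2(FPKM + 1) was an alternative only. Adjusted p-values are Benjamini-Hochberg over 10049 genes, within each of 6 comparisons, two-sided. The fit was run on simulated counts that had the same spread setting for every gene and no library standing apart. That run was a check of the code and does not bear on the calls in these libraries. No 2 libraries of the same group were duplicates (chi-square per degree of freedom of at least 1.65). Pairs of libraries from different groups were not checked.

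The genes and all gene lists were chosen with earlier results of these data known, and lists are described by counts with no test of their own. From each list up to 6 called genes were named, by size of the log2 difference, and some genes are not reported here. Likeness used tested genes with a mean of at least 20 RPM. Other pseudocounts, filters, scalings, library weights, voom and leaving out libraries were tried. Leaving out 4 libraries together and thinning reads were added after the data were seen. Those 4 libraries were named partly by levels of the genes tested, so leaving them out is not an independent check. Promoters came from RefSeq (GRCr8). Figures used Python 3.11.15 and matplotlib 3.10.9.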

Additional observations from a re-analysis of the deposited data

How the results depend on the processing

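Over 984 recomputed differences of the 9 genes, 892 kept direction and side of the threshold, 42 lost the call, 12 gained it and 38 changed sign, none of these last a called difference. The calls of Mmp3 and Timp1 against Control in all 3 groups, and of Mmp13 in SF/HA-HEP-PAM against Alkali-burned, were kept under each alternative. A filter of 20 RPM gave no value for Mmp10, Mmp12 and Timp3. Leaving out the 4 libraries gave none for Mmp10 and Mmp12, and the FPKM and voom fits gave none for Timp3. Mmp10, Timp3 and Mmp12 had the fewest reads (84, 91 and 134 over the 12 libraries). Unless stated, the cause of a change was not tested.

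With a pseudocount of 10 the genes called were 444 in Alkali-burned against Control (730 in the fit reported), 977 in SF/HA-HEP-PAM against Alkali-burned (1618), 502 in SF/HA-HEP-PAM against SF/HA (802), 378 in SF/HA against Control (661) and 920 in SF/HA-HEP-PAM against Control (1605). On log2(FPKM + 1), with 6112 genes tested, they were 348, 678, 267, 279 and 709 in that order, and 149 in SF/HA against Alkali-burned (314). Library weights gave 1109 in Alkali-burned against Control. SF/HA against Control gave 367 with only the 2 groups in the fit and 424 with voom.

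Leaving out 1 library gave 501 to 933 genes in Alkali-burned against Control, 125 to 336 in SF/HA against Alkali-burned and 1171 to 1429 in SF/HA-HEP-PAM against Alkali-burned. It gave 361 to 856 in SF/HA-HEP-PAM against SF/HA, 468 to 873 in SF/HA against Control and 1095 to 1745 in SF/HA-HEP-PAM against Control. SF/HA against Alkali-burned fell to 140 without Alkali-burned 2, 125 without Alkali-burned 3 and 165 without SF/HA 2. SF/HA-HEP-PAM against SF/HA fell to 448 without SF/HA 3, 372 without SF/HA-HEP-PAM 1 and 361 without SF/HA-HEP-PAM 3.

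Changes of sign in Alkali-burned against Control were seen in Mmp14 (0.33 with weights, 0.0035 with voom, 0.44 without the 4 libraries, 0.10 thinned, -0.42 to 0.55 leaving out 1 library) and Mmp13 (-0.0247 without the 4 libraries). In SF/HA against Alkali-burned, leaving out 1 library gave -0.73 to 0.41 for Mmp12 and -0.0431 to 0.78 for Timp3. In SF/HA-HEP-PAM against Alkali-burned, Timp1 was 0.11 and Timp3 -0.0478 without the 4 libraries, and Timp1 was -0.41 to 0.0639 leaving out 1. Between the patches (SF/HA-HEP-PAM against SF/HA) Timp3 was -0.0532 with median-of-ratios scaling, -0.26 with quantile normalization, -0.195 with weights, -0.72 without the 4 libraries and -0.38 to 0.44 leaving out 1, where Mmp9 was -0.39 to 1.56. In SF/HA against Control, Mmp10 was 0.072 at a pseudocount of 0.5, 0.0058 with median-of-ratios scaling, 0.50 with weights, 0.46 with voom and -0.45 to 0.44 leaving out 1. Mmp9 there was -0.38 and Timp3 0.24 without the 4 libraries, and Mmp9 was -0.18 to 1.78 leaving out 1. For SF/HA-HEP-PAM against Control, Mmp14 was -0.0378 with median-of-ratios scaling, -0.0701 with quantile normalization and -0.20 to 0.78 leaving out 1. Mmp2 there was 0.0036 with weights, 0.25 without the 4 libraries and -0.56 to 0.10 leaving out 1.

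Same-numbered replicates did not deviate together (correlations -0.159 to 0.173, 4 of 18 above 0.1), and 7 of 18 correlated best with their own number, so the numbers were not taken as pairs. With the replicate number as a block, 763, 322, 1643, 810, 685 and 1608 genes were called, against 730, 314, 1618, 802, 661 and 1605 without it. The block changed no call of the 9 genes.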

Other observations

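The pathway lists of both patch groups against Control hold values not given above. Beside the counts below, 4.50% of all genes were called higher and 2.08% lower in SF/HA, and 13.0% and 2.94% in SF/HA-HEP-PAM. Among the 22 inducers and transcription factors tested, 4 rose and 0 fell in SF/HA: the cytokines Il6 (log2 3.09), Il1b (2.99) and Osm (2.50), and Runx1 (1.27). In SF/HA-HEP-PAM 11 rose and 0 fell, led by Il1b (2.66), Il6 (2.19), Osm (2.11), Ets2 (1.70), Runx1 (1.69) and Areg (1.60). Tnf was called against Control after the burn, but in the patch groups it measured 16.1 ± 5.72 RPM in SF/HA and 20.8 ± 9.26 in SF/HA-HEP-PAM beside 18.2 ± 7.03 in Control (SD, n = 3).

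Of the 18 activators, inhibitors and binding partners, 7 rose and 0 fell in SF/HA against Control, with Plau at 1.99 and its receptor Plaur at 1.62. In SF/HA-HEP-PAM 6 rose, led by Serpinb2 (3.40) and Plau (2.63), and 2 fell, among them Sparc (-1.84). Of the 20 matrix substrates, Tnc (1.72) and Dcn (1.07) rose in SF/HA and 5 fell, among them Col5a1 (-2.04) and Col6a1 (-1.82). In SF/HA-HEP-PAM 6 rose, with the laminin chains Lama3 (1.94) and Lamb3 (1.76) among them, and 7 fell, led by Kera (-2.60) and Col6a1 (-2.47).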
